A study of Mus musculus with 6 samples.

Results

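The proteasome subunit genes were taken as the protein-coding genes whose symbol in the GENCODE M21 mouse annotation is Psm followed by a letter from a to g and a number, leaving out Psmb8 and Psmb9. This gave 48 of the 41388 genes with a deposited level. RNA was sequenced from 6 libraries of primary hepatocytes of the C57BL/6J mouse strain, isolated with collagenase and kept in culture overnight. In 3 libraries (β-gal, replicates 1, 2 and 3) the cells carried an adenovirus that encodes beta galactosidase, a bacterial enzyme used as the control protein, and in the other 3 (Aloxe3, replicates 7, 8 and 9) an adenovirus that encodes ALOXE3, an epidermis-type lipoxygenase. Both groups therefore carried virus, given at about 1000000 viral particles per 1000000 cells for 24 h, and no cells without virus are compared here. Whether the replicates were separate cultures or animals is not given in the labels, so each p-value measures the spread between these libraries, which may be technical.

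The proteasome degrades proteins that carry ubiquitin chains. Its core particle is a barrel of stacked rings, with alpha subunits (Psma genes) outside and beta subunits (Psmb genes) inside, and 3 of the beta subunits hold the active sites. The regulatory particle caps the barrel: its base holds the ATPases (Psmc genes) that unfold and thread the substrate, and its lid holds scaffold subunits and the enzyme that removes ubiquitin (Psmd genes). Activators (Psme genes) can replace that cap, and dedicated chaperones build the complex. Hepatocytes make and turn over large amounts of protein.

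The members fell into 8 alpha-ring and 9 beta-ring genes (17 for the core), 9 base and 8 lid genes (17 for the regulatory particle), 6 activator or inhibitor genes and 7 assembly chaperones. The last, Psmc3ip, matches by name only, as its product is a partner of the Psmc3 protein that works in homologous recombination. Levels are RPKM, reads per kilobase of gene and per 1000000 reads in the library. Library sizes were 25521908 to 32431318 reads, at which 1 read on a 1 kb gene equals 0.0308 to 0.0392 RPKM. In the Aloxe3 gene itself the level was 1.74 to 2.06 RPKM in the β-gal libraries and 42.3 to 56.4 RPKM in the Aloxe3 libraries (log2 fold change 4.05 ± 0.10 (SE), adjusted p = 4.737e-06 in limma). Summed levels of hepatocyte markers (5 of 6 genes found) were 4997 to 5032 RPKM in β-gal and 4831 to 4993 RPKM in Aloxe3 libraries, against 4.22 to 5.92 and 4.19 to 4.89 RPKM for 6 Kupffer cell markers, 16.4 to 18.4 and 15.9 to 18.5 RPKM for 6 endothelial markers, and 3.39 to 3.91 and 3.51 to 3.81 RPKM for 6 stellate cell markers. Of the 5 hepatocyte markers found, 4 had a mean of at least 0.5 RPKM. Of the Kupffer, endothelial and stellate markers, 4 of 6, 4 of 6 and 2 of 6 did. Clec4f among the Kupffer and Lrat and Colec11 among the stellate markers were under 0.1 RPKM in each library. In bulk RNA, fewer cells of a type and less RNA per cell cannot be told apart.

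No proteasome gene passed the test between Aloxe3 and β-gal hepatocytes. Of the 48 members, 46 had a mean of at least 0.5 RPKM and entered the fit over 12693 genes with limma on log2(RPKM + 1). None of the 46 had an adjusted p under 0.05, against 0.394% of all genes tested, and the smallest was 0.313. At an unadjusted p under 0.05, 5 of 46 members (10.9%) were lower in Aloxe3 hepatocytes, against 5.42% of all genes, and 0 were higher, against 7.31% of all genes. The 5 were the core genes Psmb3, Psmb4 and Psma5 and the base genes Psmd2 and Psmd4. Log2 fold changes of the 46 members ran from -0.21 to 0.13 with a median of -0.05 (36 below 0 and 10 above), while the median over all genes tested was 0.00 and 47.6% of them were below 0. Without Aloxe3 replicate 9, 27 members were below 0 and 19 above (median -0.01), and after quantile normalization of all libraries 28 were below and 18 above (median -0.03). Since the pseudocount of 1 RPKM pulls low genes towards 0, these values understate the difference of the lowest members.

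**Figure D1:**
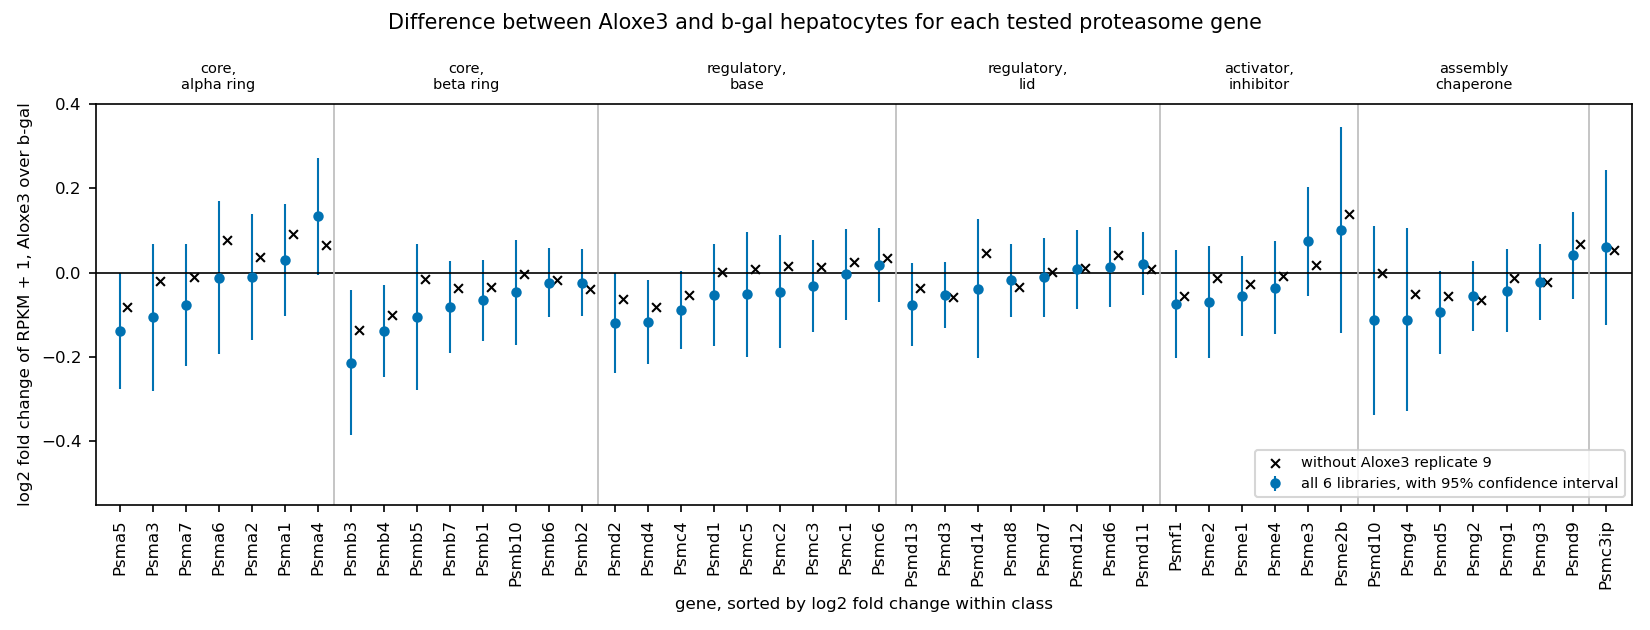
Log2 fold change of RPKM + 1 (vertical axis, Aloxe3 over β-gal) of the 46 tested proteasome genes, sorted within class along the horizontal axis. Points are fits over all 6 libraries with 95% confidence intervals and crosses the values without Aloxe3 replicate 9; the points lie between -0.21 and 0.13, and the Psmb3 interval reaches lowest, to -0.38.

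Confidence intervals were narrow for most of these genes. They cover the spread between these libraries, which may be technical, and not the choice of normalization. Quantile normalization moved the log2 fold change of Psmb6 from -0.02 to 0.02 and that of Psmb7 from -0.08 to -0.04. The 95% confidence interval of the fold change of RPKM + 1 lay within 1.2-fold in either direction for 38 of 46 members, including 17 of 17 regulatory particle genes and 10 of 15 tested core genes. The 8 exceptions were the core genes Psma3, Psma4, Psma5, Psmb3 and Psmb5, the assembly chaperones Psmd10 and Psmg4, and Psme2b. Psmc3ip, at about 1 RPKM, counts as within this limit on the RPKM + 1 scale, on which its difference is understated. Over all 6 libraries the SD was 1.4% to 14.8% of the mean level (median 4.97%). Reads derived for the 48 members together made up at least 0.605% to 0.616% of the β-gal libraries and 0.574% to 0.610% of the Aloxe3 libraries, with the smallest length taken for genes whose length is not known.

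Levels within the complex differed far more than levels between the groups. In β-gal hepatocytes the tested core genes had a median of 60.7 RPKM and ran from Psma3 at 3.87 RPKM to Psmb7 at 128 RPKM. The regulatory particle genes had a median of 62.2 RPKM and ran from Psmd6 at 25.0 RPKM to Psmd8 at 605 RPKM, so that the top and bottom genes of that particle were 24.2-fold apart. The 6 ATPases of the base, which stand in 1 ring with 1 copy of each, lay within 3.22-fold, from Psmc2 at 36.8 RPKM to Psmc5 at 119 RPKM. Assembly chaperones were lower, with a median of 16.1 RPKM and a range from Psmg3 at 5.12 to Psmg4 at 42.5 RPKM.

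**Figure D2:**
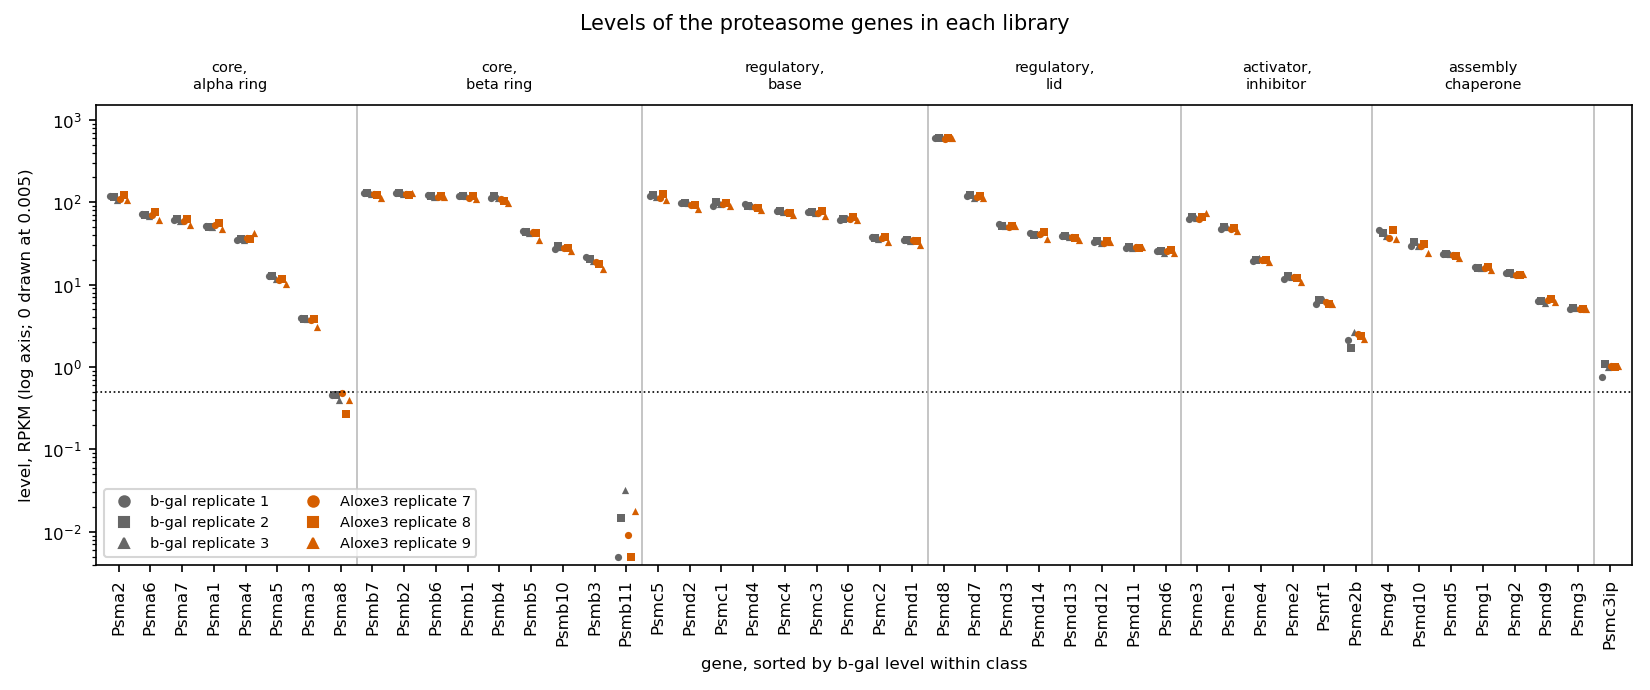
Level of each of the 48 proteasome genes in each library (vertical axis, RPKM on a log axis, with 0 drawn at 0.005), grouped by class and sorted by β-gal level along the horizontal axis, with Psmc3ip alone at the right. The dotted line is the 0.5 RPKM mean needed for the test; Psmd8 is highest at 583 to 612 RPKM, Psma8 and Psmb11 lie under the line, and the 6 points of most genes lie close together.

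A level in RPKM also depends on the gene length used in its scaling and on reads that could come from more than 1 gene. The length behind the deposited values equalled the union of GENCODE M21 exons for 27 of 48 members. For the other 21 only the smallest length that gives whole reads is known, so their reads are known up to a common factor and no other scaling is given for them. Psmb6 was scaled by 1872 bases although its longest coding transcript has 798, and on that transcript its level would be 281 in place of 120 RPKM. For Psma3 the same step, from 3894 bases, gave 5.30 in place of 3.87 RPKM. For Psmc2, the lowest of the 6 ATPase genes above, it gave 104 in place of 36.8 RPKM, from 5031 bases. The order of the levels above therefore holds for the lengths behind the deposited values. As the authors counted uniquely aligned reads only, stretches identical to another gene are lost from the count. Of all 50-base windows of its transcripts, the read length used, 22.0% were also found in another gene for Psma3 (most of them in the transcript of Gm13835), 55.8% for Psmb3, 55.4% for Psma5 and 54.1% for Psmb5, against 0% for Psmd8. Over 20% of windows were shared for 6 tested core genes (Psma3, Psma4, Psma5, Psmb3, Psmb5 and Psmb7) and 1 regulatory particle gene (Psmd2), and levels of these genes are uncertain to that extent. Psma3, Psma4, Psma5, Psmb3 and Psmb5 also had intervals that reached beyond 1.2-fold, as did Psme2b (69.3% shared). Psmb7 and Psmd2, which share over 20% too, did not, nor did Psme2 (54.9%), Psmc3ip (27.1%) and Psmg3 (21.8%). The shared windows of Psmb7 are all with Nek6, a gene that overlaps it. Psmd10 and Psmg4 had such intervals with no shared window. The part of shared sequence in these levels and intervals was not tested.

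**Figure D3:**
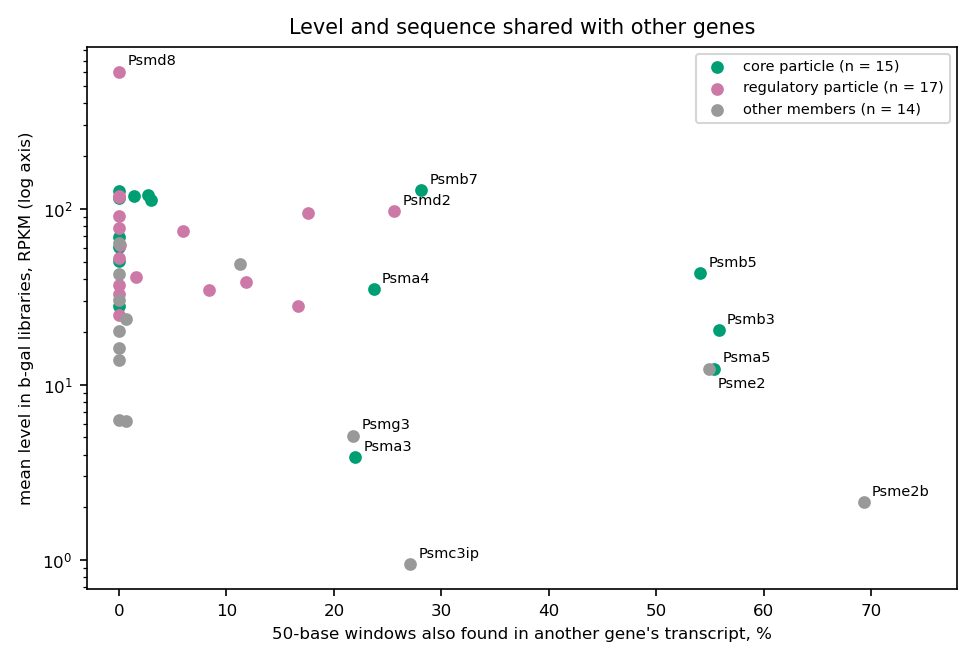
Mean β-gal level (vertical axis, RPKM on a log axis) against the percentage of 50-base windows also found in a transcript of another gene (horizontal axis) for the 46 tested members, coloured by particle. Psme2b has the largest shared percentage (69.3%) at 2.14 RPKM, and Psmd8, the highest level, shares none.

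The active sites of the core sit on the products of Psmb5 (chymotrypsin-like), Psmb6 (caspase-like) and Psmb7 (trypsin-like), and Psmb10 encodes the inducible subunit that takes the place of Psmb7 in immunoproteasomes. The promoters of Psmb5 and Psmb6 are shown because both hold the core of the antioxidant response element, the motif read by the factors Nfe2l2 and Nfe2l1, which are known to drive proteasome genes under stress. The sequences are the 150 bases that precede the RefSeq start site in GRCm38.p6, 5′ to 3′ on the strand of the gene, with the motif TGACNNNGC in capitals. Psmb5 (ENSMUSG00000022193) lies at chr14:54614119-54618022 on the minus strand and its stretch at chr14:54617996-54618145. Psmb6 (ENSMUSG00000018286) lies at chr11:70525367-70527858 on the plus strand and its stretch at chr11:70525207-70525356. The GENCODE model of Psmb5 starts inside the printed stretch, downstream of the motif.
Psmb5: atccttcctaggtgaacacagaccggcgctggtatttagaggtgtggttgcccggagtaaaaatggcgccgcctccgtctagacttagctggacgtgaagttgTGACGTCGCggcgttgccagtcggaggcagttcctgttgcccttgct
Psmb6: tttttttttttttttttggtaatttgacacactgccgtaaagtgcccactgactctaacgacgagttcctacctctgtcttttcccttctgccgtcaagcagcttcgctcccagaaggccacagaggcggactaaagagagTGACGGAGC

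Promoters of other genes held the motif at a similar share. RefSeq start-site windows, from 250 bases before to 50 bases after the start, were found by symbol for 40 of 48 members (43 windows). TGACNNNGC stood on either strand in 6 of these windows (14.0%), those of Psmb5, Psmb6, Psmc6, Psmd12, Psmd9 and Psme4, and in 12.4% of 32851 windows over all genes. CCAAT, the box read by NF-Y and common in promoters of housekeeping genes, stood in 14 of the 43 windows (32.6%) against 37.4% over all genes. No member window held both motifs. A match describes letters, not a bound site.

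Levels of the catalytic genes overlapped between the groups. Psmb5 was at 44.3, 42.9 and 41.9 RPKM in β-gal replicates 1, 2 and 3 and at 43.4, 41.9 and 35.1 RPKM in Aloxe3 replicates 7, 8 and 9. Psmb6 was at 122, 120 and 117 RPKM and at 116, 121 and 117 RPKM. Psmb7 was at 128, 130 and 127 RPKM and at 127, 123 and 113 RPKM. For Psmb5 and Psmb7 the low library was Aloxe3 replicate 9 and the other 5 libraries lay close together, whereas Psmb6 showed no low library. The log2 fold changes were -0.11 ± 0.07 (SE) for Psmb5, -0.02 ± 0.04 for Psmb6 and -0.08 ± 0.05 for Psmb7, with adjusted p from 0.511 to 0.816 in limma. Without Aloxe3 replicate 9 they were -0.01, -0.02 and -0.04, and leaving out any other single library gave -0.042 to -0.008 for Psmb6 and -0.163 (without Aloxe3 replicate 7) at the lowest for Psmb5.

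The inducible subunit also overlapped between the groups. Psmb10 was at 26.7, 29.6 and 28.2 RPKM in β-gal and at 28.0, 28.2 and 25.5 RPKM in Aloxe3 libraries (log2 fold change -0.05 ± 0.05 (SE), adjusted p = 0.755 in limma). With 1 library left out at a time the value ran from -0.084 (without β-gal replicate 1) to -0.002 (without Aloxe3 replicate 9), and it was -0.013 without β-gal replicate 2. Per 100 units of Psmb7 RPKM there were 22.0 ± 1.01 units of Psmb10 (SD, n = 3) in β-gal and 22.5 ± 0.46 (SD, n = 3) in Aloxe3 hepatocytes, a description with no test.

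The other beta-ring genes held the most negative fold change among the members. Psmb3 (ENSMUSG00000069744, chr11:97703399-97713500), a structural beta subunit without an active site, was at 21.6, 20.4 and 19.2 RPKM in β-gal and at 19.0, 17.9 and 15.6 RPKM in Aloxe3 libraries. The groups did not overlap, but the lowest β-gal and the highest Aloxe3 library lay close together. The log2 fold change was -0.21 ± 0.07 (SE), with an adjusted p of 0.313 in limma, and it was -0.14 without Aloxe3 replicate 9. Psmb4 (ENSMUSG00000005779, chr3:94884093-94886961), another structural beta subunit, picked with its values already seen, was at 114, 118 and 113 RPKM in β-gal and at 111, 103 and 99.1 RPKM in Aloxe3 libraries. Here too each Aloxe3 library lay below each β-gal library. Its log2 fold change was -0.14 ± 0.05 (SE; adjusted p = 0.313), and -0.10 without Aloxe3 replicate 9, and it shares no 50-base window with another gene. All 8 tested beta-ring genes were below 0, with and without Aloxe3 replicate 9 (medians -0.07 and -0.03), while quantile normalization left 6 of 8 below 0 (median -0.04).

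The alpha-ring genes were spread on both sides of 0. Psma5, an alpha subunit, was at 12.55, 12.77 and 11.67 RPKM in β-gal and at 11.51, 11.65 and 10.2 RPKM in Aloxe3 libraries (log2 fold change -0.14 ± 0.06 (SE), adjusted p = 0.39 in limma, and -0.08 without Aloxe3 replicate 9). Its groups did not overlap, but β-gal replicate 3 and Aloxe3 replicate 8 were nearly equal. Psma4 (ENSMUSG00000032301, chr9:54950790-54958030), also an alpha subunit, was at 34.6, 35.8 and 34.4 RPKM in β-gal and at 36.8, 36.3 and 42.3 RPKM in Aloxe3 libraries. It was the only member whose Aloxe3 libraries all lay above its β-gal libraries, with replicate 9 highest (log2 fold change 0.13 ± 0.06 (SE), adjusted p = 0.411 in limma, and 0.06 without that library). Of its 50-base windows 23.7% are shared, most with Gm6542. Psma1 followed Psma4 with a log2 fold change of 0.03 ± 0.06 (0.09 without Aloxe3 replicate 9 and -0.03 without Aloxe3 replicate 8). It was at 50.9, 50.6 and 50.7 RPKM in β-gal and at 52.2, 56.0 and 47.5 RPKM in Aloxe3 libraries, so its control libraries lay inside the range of the Aloxe3 libraries. Psma3 was at 3.99, 3.80 and 3.83 RPKM in β-gal and at 3.75, 3.85 and 3.02 RPKM in Aloxe3 libraries, from 311 to 501 reads, and only Aloxe3 replicate 9 stood apart (log2 fold change -0.11, and -0.02 without it). Over the 7 tested alpha-ring genes 5 were below 0 (median -0.01), and 3 were below 0 without Aloxe3 replicate 9 (median 0.04) or under quantile normalization (median 0.02).

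The tissue-restricted core genes were near the limit of detection. Psma8, the alpha subunit of the testis, was at 0.458, 0.455 and 0.399 RPKM in β-gal and at 0.486, 0.272 and 0.402 RPKM in Aloxe3 libraries, from 14 to 25 reads at the smallest length that gives whole reads. Psmb11, the beta subunit of the thymus cortex, was listed at 0 in 1 library of each group and at 0.009 to 0.03 RPKM in the other 4, from at most 4 reads at that length. Both were below the filter and were not tested.

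The regulatory particle genes stayed within a narrow range, with log2 fold changes from -0.12 to 0.02. Psmd2 (ENSMUSG00000006998), the large scaffold subunit of the base, was at 97.2 RPKM in each β-gal library and at 93.1, 93.0 and 82.5 RPKM in Aloxe3 libraries. Its control libraries were almost identical, and each Aloxe3 library lay below them. Psmd4, the ubiquitin receptor of the base, was at 93.9, 90.0 and 89.4 RPKM in β-gal and at 86.7, 85.4 and 79.9 RPKM in Aloxe3 libraries, again without overlap. The log2 fold changes were -0.12 ± 0.05 (SE; adjusted p = 0.392) for Psmd2 and -0.12 ± 0.04 (SE; adjusted p = 0.33) for Psmd4 in limma, and -0.06 and -0.08 without Aloxe3 replicate 9. At the other end, the lid scaffold gene Psmd11 was at 27.8, 28.4 and 27.9 RPKM in β-gal and at 28.4, 28.0 and 29.0 RPKM in Aloxe3 libraries, and the ATPase gene Psmc6 at 61.2, 61.8 and 63.6 RPKM and at 62.1, 65.4 and 61.5 RPKM. Both overlapped, each with a log2 fold change of 0.02, which was 0.01 for Psmd11 and 0.03 for Psmc6 without Aloxe3 replicate 9. For Psmc6 it was -0.009 without Aloxe3 replicate 8.

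The highest and the lowest gene of the regulatory particle overlapped between the groups. Psmd8 (ENSMUSG00000030591, chr7:29174188-29180701), a lid subunit, was at 598, 605 and 612 RPKM in β-gal and at 583, 599 and 610 RPKM in Aloxe3 libraries, from at least 22912 to 30214 reads, and ranked 59 among the tested genes. Psmd6, also of the lid, was at 25.4, 25.4 and 24.4 RPKM in β-gal and at 25.4, 26.2 and 24.2 RPKM in Aloxe3 libraries. Their 95% confidence intervals of the log2 fold change ran from -0.11 to 0.07 and from -0.08 to 0.11. With 1 library left out at a time the log2 fold change of Psmd8 was -0.034 to -0.0007 and that of Psmd6 -0.012 to 0.042.

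Core and regulatory particle were then set side by side, since the genes of both are needed for the whole complex. Among tested core genes 13 of 15 were below 0 (median log2 fold change -0.07), and among regulatory particle genes 13 of 17 (median -0.04). The median difference of the core genes from their β-gal mean, on the log2(RPKM + 1) scale, was 0.01, 0.01 and -0.03 in β-gal replicates 1, 2 and 3 and -0.03, 0.002 and -0.18 in Aloxe3 replicates 7, 8 and 9. For the regulatory particle genes it was 0.01, 0.01 and -0.02, and -0.02, 0.02 and -0.13. Both particles were thus lowest in Aloxe3 replicate 9, and the other Aloxe3 libraries lay in or close to the range of the controls. The core median minus the regulatory median was 0.009, 0.001 and -0.006 in β-gal replicates 1, 2 and 3 and -0.014, -0.018 and -0.049 in Aloxe3 replicates 7, 8 and 9. Each Aloxe3 library lay below each β-gal library, and replicate 9 was farthest from them. The mean was 0.001 ± 0.007 (SD, n = 3) in β-gal and -0.03 ± 0.02 (SD, n = 3) in Aloxe3 libraries. The β-gal libraries were measured against their own mean, which sets them near 0. The separation and the SDs of the groups are therefore not an even comparison. No test was made of these medians.

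Aloxe3 replicate 9 held the lowest of the 6 values for 30 of 46 members (65.2%), against 30.1% of all genes tested, and the highest value for 3 (6.52%), against 19.9% of all genes tested. Each of the other libraries held the lowest value for 10.2% to 21.7% of all genes tested. The median difference of Aloxe3 replicate 9 from the β-gal mean was -0.01 over the genes tested. This was the lowest of the 6 libraries, with -0.01 to 0.02 in the others. Its share of reads from the mitochondrial genome was 3.70%, against 2.75% to 2.98% in the other 5 libraries, and its counts differed most from those of its group: the chi-square statistic of each pair of libraries in a group, divided by its degrees of freedom, was 10.4 and 11.4 for the 2 pairs it is in and 3.42 to 5.56 for the others. The part of these values in the proteasome levels was not tested.

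**Figure D4:**
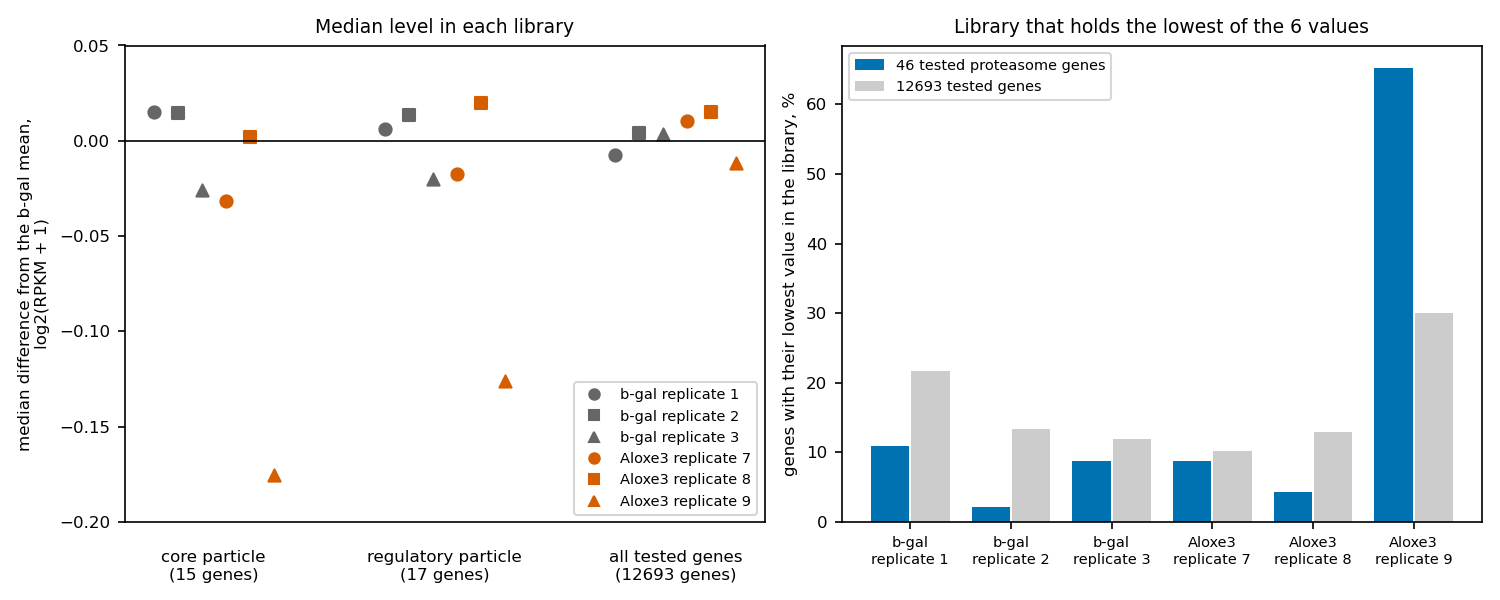
Left: median difference from the β-gal mean (vertical axis, log2(RPKM + 1)) of the core, the regulatory particle and all tested genes in each library; Aloxe3 replicate 9 is at -0.18, -0.13 and -0.01. Right: percentage of the 46 tested members and of the 12693 tested genes with their lowest value in each library, 65.2% and 30.1% for Aloxe3 replicate 9.

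Aloxe3 replicate 9 held the lowest value of 30 of 46 members, so leaving it out had to raise the fold changes of those members. In the fit without that library the members lay closer to the rest of the genes. The core median was -0.02 (11 of 15 below 0) and the regulatory median 0.01 (6 of 17 below 0), while over all genes tested the median was 0.01 and 43.5% were below 0. In that fit 0 of 46 members had an adjusted p under 0.05 in limma, against 0.15% of 12658 genes. At an unadjusted p under 0.05, Psmb3, Psmb4 and Psmd4 were lower (3 of 46, 6.52%, against 4.78% of genes) and Psma1 was higher (1 of 46, 2.17%, against 7.46% of genes).

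Members whose groups did not overlap were counted with and without that library. With all libraries, the Aloxe3 values of 10 of 46 members (21.7%) all lay below the β-gal values, against 8.71% of all genes, and those of 1 member (2.17%), Psma4, all lay above, against 11.2% of all genes. The 10 were Psma5, Psmb3, Psmb4, Psmc4, Psmd2, Psmd3, Psmd4, Psmd13, and the assembly chaperones Psmd5 and Psmg2. Leaving out a library cannot undo such a separation, so these 10 members and Psma4 had to stay apart without Aloxe3 replicate 9. No further member then lay below (10 of 46, against 12.3% of all genes), and Psma1, Psmd6 and Psmd9 joined Psma4 above (4 of 46, 8.70%, against 19% of all genes).

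Among the activators and the inhibitor, Psme3 had the highest level in RPKM and Psme2b the lowest, although Psme1 was above Psme3 when both were scaled by their longest coding transcript (96.9 against 70.9 RPKM in β-gal hepatocytes). Psme3, the gene of the nuclear PA28 gamma activator, was at 62.4, 65.7 and 64.0 RPKM in β-gal and at 62.8, 66.9 and 73.0 RPKM in Aloxe3 libraries, with replicate 9 highest and the groups overlapping (log2 fold change 0.07 ± 0.06 (SE), adjusted p = 0.612 in limma, and 0.02 without that library). The value for Psme3 was 0.125 without Aloxe3 replicate 7. Psme2b was at 2.11, 1.70 and 2.63 RPKM in β-gal and at 2.48, 2.40 and 2.17 RPKM in Aloxe3 libraries, from 46 to 65 reads. Its control libraries spanned all of the Aloxe3 libraries (log2 fold change 0.10 ± 0.10 (SE), adjusted p = 0.727 in limma). The value was -0.005 without β-gal replicate 2 and 0.209 without β-gal replicate 3. With 69.3% of its windows shared, most with Psme2, a gene of the PA28 alpha and beta activator, reads of this pair cannot be fully told apart. Psme1, the partner of Psme2, was at 48.8 ± 1.07 RPKM (SD, n = 3) in β-gal and 47.0 ± 1.98 RPKM (SD, n = 3) in Aloxe3 hepatocytes. Psme4, the gene of the PA200 activator, and Psmf1, a proteasome inhibitor, overlapped between the groups, with log2 fold changes of -0.04 and -0.07 (-0.01 and -0.06 without Aloxe3 replicate 9).

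The assembly chaperones had small negative differences in 6 of 7 genes (median log2 fold change -0.06, and -0.02 without Aloxe3 replicate 9). Psmd10, the base chaperone also known as gankyrin, was at 29.2, 32.9 and 29.2 RPKM in β-gal and at 29.5, 31.2 and 23.9 RPKM in Aloxe3 libraries. Psmg4, a chaperone of the alpha ring, was at 45.5, 42.8 and 39.0 RPKM in β-gal and at 36.8, 45.4 and 35.9 RPKM in Aloxe3 libraries, from at least 520 to 814 reads. Both overlapped and both varied widely within a group (log2 fold change -0.11 ± 0.10 (SE) and -0.11 ± 0.09, adjusted p = 0.661 and 0.654 in limma). With 1 library left out at a time, the values ran from -0.188 (without Aloxe3 replicate 8) to -0.001 (without Aloxe3 replicate 9) for Psmd10 and from -0.215 to -0.051 for Psmg4, at the same libraries. Psmc3ip, which belongs to no class of the complex, was at 0.947 ± 0.175 RPKM (SD, n = 3) in β-gal and 1.02 ± 0.02 RPKM (SD, n = 3) in Aloxe3 hepatocytes.

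Genes that work with the proteasome outside the Psm names were read from the same fit. Of 35 such genes 34 were tested, 18 below and 16 above 0 (median log2 fold change -0.02), and none had an adjusted p under 0.05, with the smallest at 0.119. At an unadjusted p under 0.05, 2 were lower and 2 higher, or 5.88% in each direction, against the 5.42% and 7.31% of all genes given above. The Aloxe3 values of 14.7% of the 34 all lay below the β-gal values, against 8.71% of all genes. Those of 11.8% all lay above, against 11.2% of all genes. Of each list the 2 genes with the smallest p follow, a choice that favours groups that do not overlap.

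Among subunits and bound factors without a Psm name (10 tested, 5 on each side of 0), Sem1, a small lid subunit, was at 82.5, 82.2 and 80.3 RPKM in β-gal and at 76.1, 76.4 and 75.9 RPKM in Aloxe3 libraries. The groups did not overlap and the Aloxe3 libraries were nearly identical (log2 fold change -0.10 ± 0.03 (SE), adjusted p = 0.285 in limma). Usp14, the ubiquitin hydrolase bound to the base, was at 19.6, 18.4 and 19.0 RPKM in β-gal and at 18.7, 17.0 and 17.1 RPKM in Aloxe3 libraries, with overlap (adjusted p = 0.409 in limma).

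Among 14 ubiquitin and shuttle genes, Ubqln2, a shuttle that carries ubiquitin-bearing proteins to the proteasome, was at 31.8, 31.3 and 31.8 RPKM in β-gal and at 34.6, 34.8 and 36.2 RPKM in Aloxe3 libraries. Each Aloxe3 library lay above each control (log2 fold change 0.15 ± 0.03 (SE), adjusted p = 0.176 in limma). Uba1, the main ubiquitin-activating enzyme, was at 206, 204 and 202 RPKM in β-gal and at 195, 198 and 195 RPKM in Aloxe3 libraries, also without overlap (log2 fold change -0.06, adjusted p = 0.504 in limma).

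Among 10 genes that regulate proteasome genes, Nfe2l2, the gene of the factor that reads the motif printed above, was at 46.4, 48.4 and 49.4 RPKM in β-gal and at 55.6, 53.9 and 57.9 RPKM in Aloxe3 libraries. The groups did not overlap (log2 fold change 0.21 ± 0.04 (SE), adjusted p = 0.119 in limma). With limma-voom on derived reads the value was 0.21 and passed the threshold, which it did under no other alternative. Mafk, a small partner protein of that factor, was at 23.3, 23.7 and 21.9 RPKM in β-gal and at 20.7, 20.9 and 21.1 RPKM in Aloxe3 libraries, each below each control (log2 fold change -0.13 ± 0.04 (SE), adjusted p = 0.28 in limma). Nfe2l1, the related factor that responds to loss of proteasome activity, was at 69.6 ± 0.94 RPKM (SD, n = 3) in β-gal and 66.2 ± 2.14 RPKM (SD, n = 3) in Aloxe3 hepatocytes (log2 fold change -0.07, adjusted p = 0.458 in limma).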

How the data were processed

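RNA of primary mouse hepatocytes was sequenced in 3 β-gal and 3 Aloxe3 libraries in a single run (poly-A selection, 50-base single reads). Per the submitters' processing notes and methods, STAR 2.0.4b and featureCounts 1.4.5 were used with GRCm38.p2, counting unique unambiguous reads. The authors deposited RPKM values for each gene; how counts became RPKM and whether strand was used are not given in the sources used here. Those values were used as deposited. Reads per gene were derived from their whole-number steps, exactly for 27 members and up to a common factor for 21.

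Levels were tested as log2(RPKM + 1) with limma 3.58.1 in R 4.3.3 (trend), two-sided, over 12693 genes whose mean level reached 0.5 RPKM, with Benjamini-Hochberg adjustment at 0.05. The scripts were tested on simulated data. Full values are given for the catalytic genes and Psmb10, the 2 lowest and 2 highest fold changes of core, regulatory particle and the rest, the extremes of level, members near 0, and the 2 smallest p in each companion list. The companion lists hold subunits and bound factors (Paaf1 was not matched), ubiquitin and shuttle genes, and regulators. Other genes given with values (Psma3, which is also the lowest tested core gene by level, Psmb4, Psme1, Psme4, Psmf1, Psmc3ip and Nfe2l1) were picked with their values already seen. The members and lists were chosen with earlier results of these data known. Intervals for a fold change are from limma at 95%. Alternatives were a pseudocount of 0.1 RPKM, no filter, a filter of 5 RPKM, rescaling to equal medians, quantile normalization, eBayes without trend, voom on derived reads, and leaving out each library.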

Additional observations from a re-analysis of the deposited data

How the results depend on the processing

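Under all 13 alternatives 0 of the members tested had an adjusted p under 0.05. The number at an unadjusted p under 0.05 was 5 with all libraries, 9 after rescaling to equal medians, 3 after quantile normalization, 3 without the trend, and from 1 (without β-gal replicate 2) to 10 (without Aloxe3 replicate 7) when 1 library was left out. Of 336 values of named members and companion genes under alternatives, 327 kept their direction and side of the threshold, 8 reversed and 1 passed the threshold (Nfe2l2 with voom, log2 fold change 0.214). After rescaling to equal medians the log2 fold change of Psmd6 was -0.000357, and after quantile normalization those of Psmb6 and Psmd8 were 0.0183 and 0.00376. Leaving out 1 library gave -0.00495 to 0.209 for Psme2b, -0.0121 to 0.0421 for Psmd6, -0.0261 to 0.091 for Psma1 and -0.00855 to 0.0345 for Psmc6, and the cause was not tested. The core median ran from -0.093 (without Aloxe3 replicate 8) to -0.0185 (without Aloxe3 replicate 9), and the regulatory median from -0.0681 to 0.00914 over the same alternatives. After quantile normalization 9 of 15 core and 9 of 17 regulatory particle genes were below 0. No paired analysis was possible because the labels give the groups different replicate numbers. Few reads limit Psma8, Psmb11, Psme2b and Psmc3ip, each derived at 65 or fewer in any library.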

Other observations

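The 4 pseudogenes with a Psm symbol, which were not counted among the members, were at or near 0. Psmb5-ps was listed at 0 in each library, Psmb6-ps and Psmb7-ps2 had at most 1 read in any library, and Psmb6-ps2 had 1 to 4 reads, 0.118 ± 0.06 RPKM (SD, n = 3) in β-gal and 0.121 ± 0.08 RPKM (SD, n = 3) in Aloxe3 hepatocytes.

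Ratios between activator genes were taken within each library. Psme3 was at 131, 133 and 130 units of RPKM per 100 units of Psme1 in β-gal and at 135, 136 and 162 in Aloxe3 libraries, so that Aloxe3 replicate 9 stood highest and the other 2 lay just above the controls. Psme4 was at 30.7, 30.3 and 33.1 units per 100 units of Psme3 in β-gal and at 31.8, 29.8 and 25.7 in Aloxe3 libraries, with the groups overlapping and replicate 9 lowest.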
